A study of Homo sapiens with 18 samples.

Results

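The 10 genes described here write repressive chromatin marks or place histones on newly made DNA, and they were followed in LNCaP cells, an established androgen-responsive prostate cancer line, after siRNA against E2F1 or E2F2 and treatment with the synthetic androgen R1881. They were chosen by gene name, with earlier results of these data known. EZH2, EED and SUZ12 belong to Polycomb repressive complex 2 (PRC2), and DNMT1, UHRF1 and HELLS to maintenance DNA methylation. The others are the histone H3 lysine 9 methyltransferase SUV39H1 and the histone chaperones ASF1B, CHAF1A and CHAF1B. The set makes up 10 of the 58037 genes listed, and all 10 were among the 15185 genes with enough counts to test. The cells grew in androgen-deprived medium with 9% charcoal-stripped serum and were transfected by lipofection. The groups were E2F2 siRNA with R1881, E2F1 siRNA with R1881, control siRNA with R1881, E2F2 siRNA with vehicle, E2F1 siRNA with vehicle and control siRNA with vehicle, where the control pool was non-targeting, R1881 was given at 0.1 nM and the vehicle was ethanol. Each of the 6 groups held 3 biological replicates, harvested 48 h after treatment. The labels put treatment 42 h after transfection in one place and 48 h in another. All groups are of 1 cell line, and each factor was silenced with 1 pool, so no second, independent siRNA stands beside a result.

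PRC2 places methyl groups on lysine 27 of histone H3 and so keeps genes silent. EZH2 is its catalytic subunit, EED binds the mark already in place, and SUZ12 holds the complex together. After each round of replication UHRF1 recognises hemimethylated DNA and recruits DNMT1, which copies the methylation to the new strand, and HELLS is a chromatin remodeller that opens nucleosomal DNA to this machinery. CHAF1A and CHAF1B are the large and middle subunits of chromatin assembly factor 1, which deposits new H3 and H4 behind the replication fork after receiving them from ASF1 proteins such as ASF1B. E2F1 and E2F2 are activator E2F transcription factors, and many genes needed in S phase are known E2F targets. EZH2 is known in prostate cancer for its high level in advanced disease.

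Because the silenced genes are E2F factors, the promoters of the 10 genes were searched for E2F words, and 1 window of each gene that carried a word is shown. The sequences are from RefSeq (GRCh38.p14) and run from 250 bases before to 50 bases after an annotated start site, 300 bases in all, on the strand of the gene. All 10 genes matched, with 14 start sites. The words TTTCCCGC, TTTGGCGC, TTTCGCGC and TTTGCCGC were searched on both strands. One or more was in 6 of the 14 windows, of 5 of the 10 genes, against 3.31% of all 35116 windows of this length. Capitals mark these words in the windows of EZH2 (chr7:148884242-148884541), SUZ12 (chr17:31936757-31937056), DNMT1 (chr19:10194904-10195203), UHRF1 (chr19:4909251-4909550) and HELLS (chr10:94545538-94545837). EZH2 and DNMT1 lie on the minus strand and the other 3 on the plus strand.
EZH2: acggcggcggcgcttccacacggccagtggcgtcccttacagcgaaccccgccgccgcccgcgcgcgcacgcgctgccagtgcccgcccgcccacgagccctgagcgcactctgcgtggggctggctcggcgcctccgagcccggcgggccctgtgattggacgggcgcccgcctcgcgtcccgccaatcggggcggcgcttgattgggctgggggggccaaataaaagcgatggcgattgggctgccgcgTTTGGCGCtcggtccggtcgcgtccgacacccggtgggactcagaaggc
SUZ12: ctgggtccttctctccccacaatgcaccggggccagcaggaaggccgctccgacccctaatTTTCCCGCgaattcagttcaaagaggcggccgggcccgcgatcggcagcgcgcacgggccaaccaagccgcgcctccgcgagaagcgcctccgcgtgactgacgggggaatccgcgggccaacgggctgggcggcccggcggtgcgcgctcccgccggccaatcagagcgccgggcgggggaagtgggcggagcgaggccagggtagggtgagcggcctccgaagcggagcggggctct
DNMT1: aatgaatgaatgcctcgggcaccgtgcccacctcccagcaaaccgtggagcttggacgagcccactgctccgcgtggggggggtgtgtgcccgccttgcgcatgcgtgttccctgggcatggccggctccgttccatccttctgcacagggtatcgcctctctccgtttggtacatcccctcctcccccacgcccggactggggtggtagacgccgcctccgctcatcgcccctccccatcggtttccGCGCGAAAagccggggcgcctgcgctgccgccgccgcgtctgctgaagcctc
UHRF1: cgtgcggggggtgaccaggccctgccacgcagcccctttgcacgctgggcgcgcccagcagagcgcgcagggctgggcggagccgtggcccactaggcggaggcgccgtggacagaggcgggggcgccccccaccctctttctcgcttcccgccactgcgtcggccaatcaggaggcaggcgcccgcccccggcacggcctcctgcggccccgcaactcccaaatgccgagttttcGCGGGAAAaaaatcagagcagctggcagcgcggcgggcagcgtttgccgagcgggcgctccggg
HELLS: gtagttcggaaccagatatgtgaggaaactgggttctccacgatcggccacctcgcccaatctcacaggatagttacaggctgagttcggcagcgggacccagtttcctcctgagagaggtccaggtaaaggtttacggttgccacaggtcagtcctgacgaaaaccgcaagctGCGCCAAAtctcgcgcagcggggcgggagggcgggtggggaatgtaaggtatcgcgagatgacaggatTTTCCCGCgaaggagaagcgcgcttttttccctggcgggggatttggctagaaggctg

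With the start site as base 1 and no base 0, the word of EZH2 begins at base 2, that of DNMT1 at -2 and that of UHRF1 at -14. HELLS holds a word at -76 and another at -8, and the word of SUZ12 begins at -189, farther from the start than the other words shown here. A further UHRF1 start site has a word at -160. EED, SUV39H1, ASF1B, CHAF1A and CHAF1B hold none of the 4 words in these windows, which says only that these letters are not there. CCAAT, searched on both strands, was in 9 of the 14 windows, of 8 genes, against 34.6% of all windows. The words TTTGAA and TTCGAA, the core of the cell cycle homology region, were in 2 of the 14 windows, of SUZ12 and ASF1B, near the 16.4% of all windows. The match in ASF1B (chr19:14136540-14136839, minus strand), at -27, is in capitals here. ASF1B was picked for display because it gave the largest fall with E2F2 siRNA under R1881 among the 10 and holds no E2F word. The part of the TTTGAA word in that fall was not tested, and SUZ12, which also holds the word, was not called in that comparison.
ASF1B: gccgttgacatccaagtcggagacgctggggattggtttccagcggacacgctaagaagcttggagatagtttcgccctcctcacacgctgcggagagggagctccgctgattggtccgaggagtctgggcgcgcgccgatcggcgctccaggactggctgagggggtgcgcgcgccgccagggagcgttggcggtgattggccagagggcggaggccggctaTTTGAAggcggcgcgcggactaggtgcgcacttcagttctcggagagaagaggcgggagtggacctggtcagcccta

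The 18 libraries held 10930204 to 14819879 gene counts, and the common biological coefficient of variation was 0.167. Levels are given as CPM, read counts scaled to TMM-adjusted library size. Log2 fold changes ± SE come from 1 edgeR quasi-likelihood fit to all 18 libraries (n = 3 per group), and adjusted p-values are Benjamini-Hochberg values across the 15185 genes. A gene is called where the adjusted p is under 0.05, and rise and fall are used of called genes alone. All 10 luminal prostate and LNCaP markers were tested, and their summed level was 5263 to 10836 CPM over the 18 libraries. Of 11 markers of other cell types, 4 (VIM, COL1A1, COL3A1 and VWF) passed the filter, with sums of 29.6 to 102 CPM for the whole list. CHGA was at 0 counts in every library, PTPRC, KRT5 and TP63 at no more than 1, and PECAM1 and DCN at no more than 2. Each pool lowered its own target: E2F1 had 123, 119 and 121 counts with E2F1 siRNA and R1881, against 1099, 961 and 938 with control siRNA and R1881, and E2F2 had 1, 1 and 5 with E2F2 siRNA and R1881, against 50, 33 and 53 with control siRNA and R1881. With vehicle E2F1 had 79, 67 and 114 counts with E2F1 siRNA, against 459, 486 and 644 with control siRNA, and E2F2 had 3, 0 and 1 with E2F2 siRNA, against 29, 21 and 48 with control siRNA. E2F1 was also lower with the E2F2 pool, at log2 -1.62 ± 0.16 under R1881 and -1.57 ± 0.16 with vehicle (adjusted p = 1.69e-06 and 3.71e-06). With E2F1 siRNA, E2F2 differed by log2 -1.22 ± 0.38 under R1881 (adjusted p = 0.0586), and a fit of the 2 groups alone called it lower (adjusted p = 0.0269). The effects of the E2F2 pool were thus measured in cells with less mRNA of both factors, and those of the E2F1 pool under R1881 in cells with 14, 23 and 18 E2F2 counts.

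Replicate 3 of every group stood apart, and EED, HELLS and SUZ12 were the genes of the 10 with the widest spread there. The chi-square of the counts over all genes, divided by its degrees of freedom, was 1.79 to 4.43 between replicates 1 and 2 of a group and 8.00 to 93.2 in pairs with replicate 3. The shift of replicate 3 correlated with G+C content at Pearson r 0.375 to 0.783 over 15122 genes, which are not independent. EED, HELLS and SUZ12, with 33.0%, 37.6% and 38.0% G+C, were lower in replicate 3 of all 6 groups, by up to log2 -1.07, -1.42 and -1.72. UHRF1, DNMT1, CHAF1A and ASF1B, with 54.6% to 58.4% G+C, were higher there in all 6 groups, by at most log2 0.46. SUV39H1, with 57.6% G+C, ranged from log2 -0.06 in E2F1 siRNA with R1881 to 0.54 in control siRNA with vehicle. The SE of the log2 changes of EED, SUZ12 and HELLS against control siRNA was 0.28 to 0.35, against 0.11 to 0.20 for the other 7 genes. Same-numbered libraries deviated together in 8 of the 11 comparisons, and the fit with replicate number as a block is given beside a result where it changes a call in those. Deviations were taken from group means, so the shift of replicate 3 also enters those of replicates 1 and 2. Of the 18 libraries, 11 correlated best with a same-numbered library among those of other groups. Pairing by number is thus not established, and calls with the block depend on it.

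**Figure D1:**
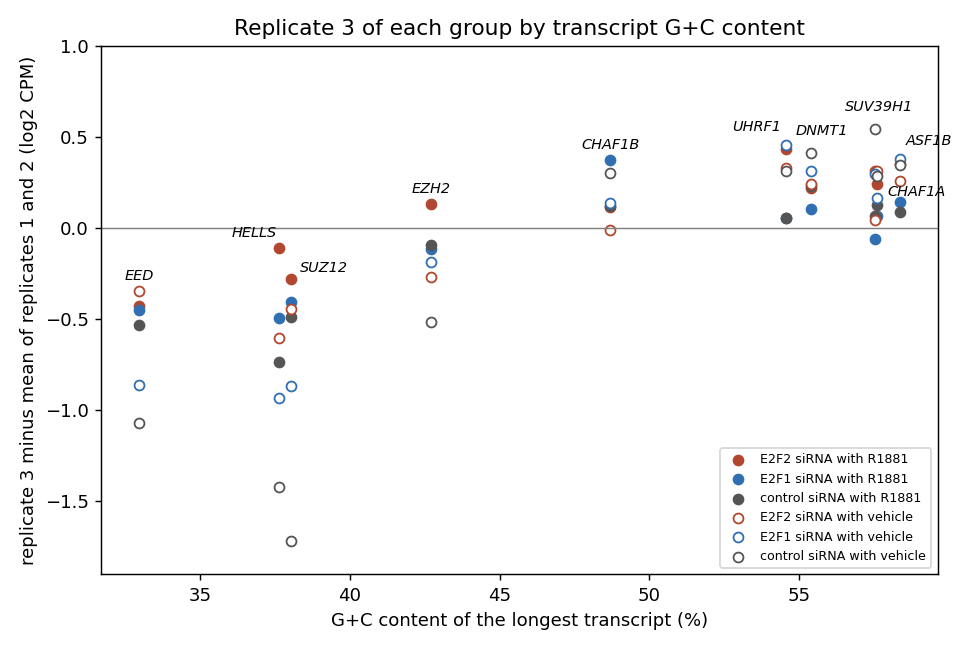
Replicate 3 minus the mean of replicates 1 and 2 (log2 CPM, y axis) for each of the 10 genes by G+C content of its longest transcript (percent, x axis), 1 point per group. EED, HELLS and SUZ12 lie below 0 in all 6 groups, down to -1.72 for SUZ12 in control siRNA with vehicle.

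**Figure D2:**
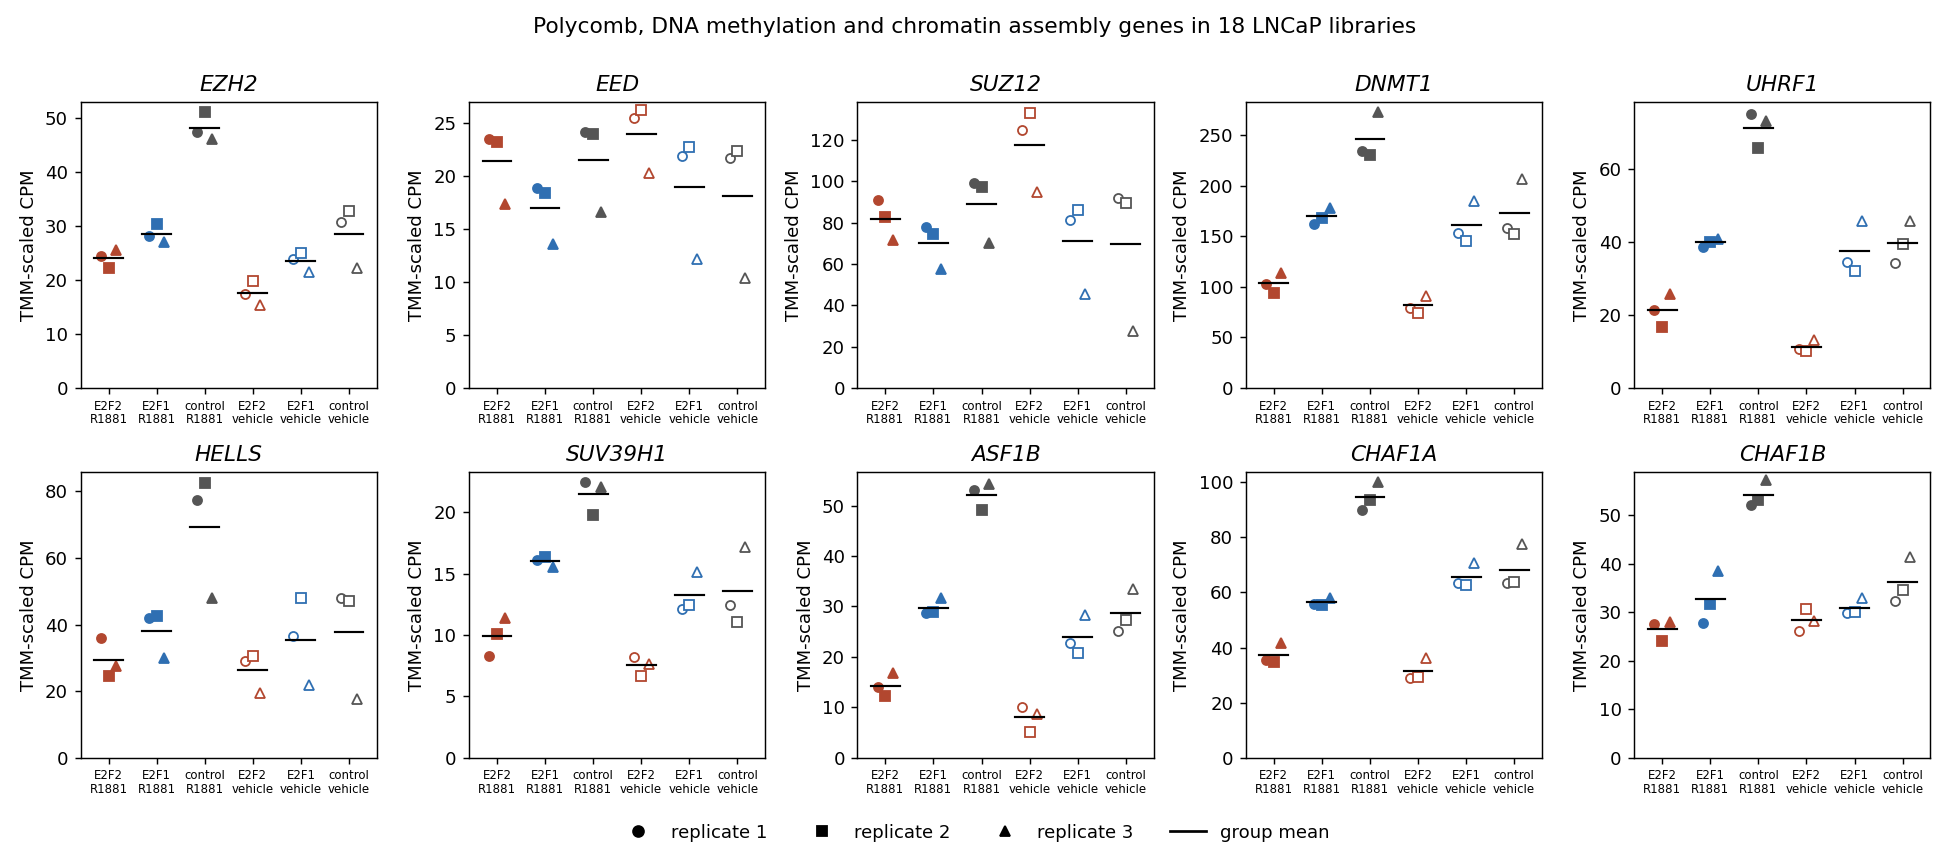
TMM-scaled CPM (y axis, from 0) of each gene in all 18 libraries by group (x axis); circles, squares and triangles are replicates 1, 2 and 3, filled with R1881 and open with vehicle, and black lines are group means. Control siRNA with R1881 has the highest mean for every gene other than EED and SUZ12, whose highest mean is in E2F2 siRNA with vehicle.

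E2F2 siRNA under R1881 lowered 8 of the 10 genes and raised none. Of all tested genes, 14.4% were called lower in this comparison. The median log2 change of the 10 genes was -1.18, against 0.03 over all tested genes. ASF1B fell most (log2 -1.86 ± 0.19), followed by UHRF1 (-1.75 ± 0.17) and CHAF1A (-1.34 ± 0.11). The exceptions were the PRC2 subunits EED and SUZ12. Fewer cells of a type, such as cells in S phase, and less RNA per cell cannot be told apart in these bulk samples. All 6 proliferation markers also fell, with MKI67 at log2 -1.56 ± 0.16, PCNA at -1.25 ± 0.18, TOP2A at -1.61 ± 0.32, CDK1 at -1.61 ± 0.37, CCNB1 at -1.11 ± 0.13 and MCM6 at -0.81 ± 0.09. Their summed level was 565 to 677 CPM in E2F2 siRNA with R1881, against 1602 to 1725 CPM in control siRNA with R1881, and its part in the result was not tested. The 11 markers of other cell types summed to 52.1 to 60.9 CPM in E2F2 siRNA with R1881, against 41.1 to 43.9 CPM in control siRNA with R1881, and the part of this was not tested either. HELLS lost its call without replicate 2 of E2F2 siRNA with R1881 (adjusted p = 0.0596).

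E2F1 siRNA under R1881 lowered 6 of the 10 genes and raised none, where 4.92% of all tested genes were called lower. The median log2 change was -0.74, against -0.01 over all tested genes. UHRF1 (-0.84 ± 0.16), ASF1B (-0.81 ± 0.18), EZH2 (-0.76 ± 0.13), CHAF1A (-0.75 ± 0.11), CHAF1B (-0.73 ± 0.12) and DNMT1 (-0.54 ± 0.13) fell. HELLS was at log2 -0.86 ± 0.35 (adjusted p = 0.153) and SUV39H1 at -0.42 ± 0.16 (adjusted p = 0.113). With replicate number as a block both were called lower, at adjusted p = 0.00490 and 0.0249. From replicates 1 and 2 alone all 10 were called lower, EED and SUZ12 included (log2 -0.36, adjusted p = 0.00320 and log2 -0.36, adjusted p = 5.16e-05), where 15.0% of all tested genes were. Of the proliferation markers 4 of 6 fell, MKI67 at log2 -0.97 ± 0.15, MCM6 at -0.51 ± 0.09, CCNB1 at -0.72 ± 0.13 and PCNA at -0.70 ± 0.18, a call that PCNA lost in 5 of the 6 fits leaving out 1 library (all but that without replicate 3 of control siRNA with R1881, adjusted p up to 0.0920). Their summed level was 894 to 963 CPM in E2F1 siRNA with R1881, against 1602 to 1725 CPM in control siRNA with R1881, and its part was not tested. The markers of other cell types summed to 29.6 to 32.0 CPM in E2F1 siRNA with R1881, against 41.1 to 43.9 CPM in control siRNA with R1881, and the part of this was not tested. DNMT1 lost its own call in 3 of the 6 fits that left out 1 library, those without replicate 1 or 2 of E2F1 siRNA with R1881 or replicate 3 of control siRNA with R1881 (adjusted p up to 0.0683).

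E2F2 siRNA with vehicle lowered 7 of the 10 genes, where 13.1% of all tested genes were called lower, and the median log2 change of the 10 was -0.77. UHRF1 (-1.82 ± 0.17) and ASF1B (-1.84 ± 0.20) fell furthest. EED and SUZ12 stood above 0, and HELLS was not called. Of the proliferation markers 5 of 6 fell, with a summed level of 371 to 379 CPM in E2F2 siRNA with vehicle, against 671 to 978 CPM in control siRNA with vehicle. The 11 markers of other cell types summed to 87.0 to 102 CPM there, against 42.8 to 66.7 CPM in control siRNA with vehicle, and VWF, an endothelial marker, was at log2 1.6 ± 0.15. The part of either in the result was not tested. E2F1 siRNA with vehicle gave no call among the 10 by edgeR, DESeq2 or limma-voom, and 0 had an unadjusted p under 0.05. Of all tested genes, 5.28% were called in that comparison and 16.1% had an unadjusted p under 0.05. The median log2 change of the 10 was -0.09, and 0 of the 6 proliferation markers were called. Without replicate 3 of control siRNA with vehicle, EZH2 was called lower (log2 -0.43, adjusted p = 0.0265). The 4 comparisons with control siRNA share control libraries within each treatment, so their results are not independent.

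**Figure D3:**
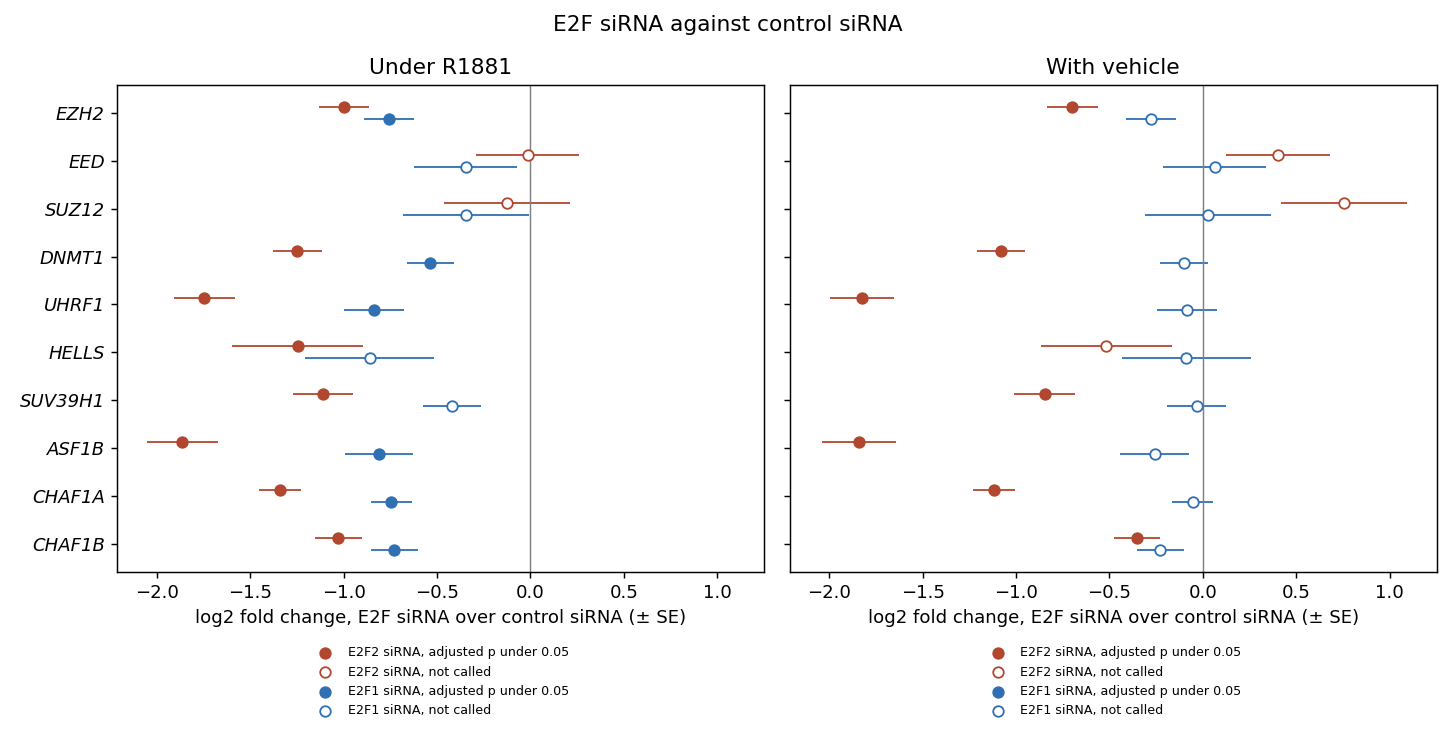
Log2 fold change ± SE of the 10 genes with E2F2 siRNA (red) and E2F1 siRNA (blue) over control siRNA, under R1881 (left) and with vehicle (right); filled points have an adjusted p under 0.05. Under R1881, 8 genes are filled for E2F2 siRNA and 6 for E2F1 siRNA, and with vehicle 7 and 0.

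The pools were also set against each other. Under R1881, 5 of the 10 genes were lower with E2F2 siRNA than with E2F1 siRNA, where 11.0% of all tested genes were called lower. They were ASF1B (-1.05 ± 0.19), UHRF1 (-0.91 ± 0.16), DNMT1 (-0.71 ± 0.13), SUV39H1 (-0.69 ± 0.16) and CHAF1A (-0.60 ± 0.11). EZH2 differed by log2 -0.24 ± 0.13 with an interval of -0.53 to 0.04 (adjusted p = 0.220), which neither shows a difference nor that the pools act alike on it. With vehicle, 6 of the 10 were lower with E2F2 siRNA than with E2F1 siRNA, where 14.4% of all tested genes were. UHRF1 was at -1.74 ± 0.17 and ASF1B at -1.58 ± 0.20, followed by CHAF1A (-1.06 ± 0.11), DNMT1 (-0.98 ± 0.13), SUV39H1 (-0.82 ± 0.17) and EZH2 (-0.42 ± 0.14). EZH2 lost this call in 4 of the 6 fits that left out 1 library, those without replicate 1 or 2 of E2F1 siRNA with vehicle or replicate 1 or 3 of E2F2 siRNA with vehicle (adjusted p up to 0.111).

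R1881 in cells with control siRNA raised 7 of the 10 genes and lowered none, where 13.8% of all tested genes were called higher. The median log2 change was 0.62, against 0.00 over all tested genes. ASF1B (0.86 ± 0.18), UHRF1 (0.84 ± 0.16), EZH2 (0.76 ± 0.13), SUV39H1 (0.66 ± 0.16), CHAF1B (0.58 ± 0.12), DNMT1 (0.51 ± 0.13) and CHAF1A (0.47 ± 0.11) rose. HELLS was at log2 0.88 ± 0.35 (adjusted p = 0.0729), and at adjusted p = 9.15e-04 with replicate number as a block. All 6 proliferation markers rose, among them CCNB1 at log2 1.0 ± 0.13 and MCM6 at 0.71 ± 0.09. In a fit of these 2 groups alone, DNMT1, SUV39H1 and CHAF1A lost their calls (adjusted p = 0.0873, 0.0840 and 0.0650), and 4 of the 10 were called. Over all genes tested in that fit, 1842 were called in either direction. The markers' summed level was 1602 to 1725 CPM in control siRNA with R1881, against 671 to 978 CPM in control siRNA with vehicle, and its part was not tested.

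With E2F2 siRNA, R1881 raised 3 of the 10 genes, where 11.8% of all tested genes were called higher. UHRF1 (0.92 ± 0.17), ASF1B (0.84 ± 0.20) and EZH2 (0.46 ± 0.14) rose. The block added DNMT1 (adjusted p = 5.79e-04), CHAF1A (adjusted p = 0.00981) and SUV39H1 (adjusted p = 0.0454), which made 6, where 18.8% of all tested genes were called higher with the block. EZH2 lost its call in 4 of the 6 fits that left out 1 library, those without replicate 1 or 3 of either group (adjusted p up to 0.0973). Of the proliferation markers 2 of 6 rose, with a summed level of 565 to 677 CPM in E2F2 siRNA with R1881, against 371 to 379 CPM in E2F2 siRNA with vehicle, and its part was not tested.

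With E2F1 siRNA, R1881 changed none of the 10 genes by edgeR, DESeq2 or limma-voom, and 0 had an unadjusted p under 0.05, where 19.8% of all tested genes were called and 29.1% had an unadjusted p under 0.05. The median log2 change was 0.09. CHAF1A was lower in every R1881 library than in any vehicle library with E2F1 siRNA (log2 -0.22 ± 0.11, adjusted p = 0.209), and the block called it lower (adjusted p = 0.0213). From replicates 1 and 2 alone 6 of the 10 were called, EZH2, DNMT1, SUV39H1 and ASF1B higher and EED and CHAF1A lower, where 38.3% of all tested genes were called. Of the proliferation markers 1 of 6 rose, with a summed level of 894 to 963 CPM in E2F1 siRNA with R1881, against 706 to 822 CPM in E2F1 siRNA with vehicle, and its part was not tested.

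The difference in R1881 response between pools was tested as an interaction. No gene of the 10 was called by edgeR for E2F1 siRNA against control siRNA, where 0.685% of all tested genes were. All 10 differences were negative, with a median of log2 -0.49 (SUZ12 was at 0.02 without replicate 3 of control siRNA with vehicle), and 6 of the 10 had an unadjusted p under 0.05, against 10.2% of all tested genes. CHAF1A came closest (log2 -0.69 ± 0.15, adjusted p = 0.0544). It was called by DESeq2, limma-voom and RLE scaling, and DESeq2 also called UHRF1. The block called 4 of the 10, CHAF1A (adjusted p = 7.17e-04), UHRF1 (adjusted p = 0.0102), DNMT1 (adjusted p = 0.0112) and CHAF1B (adjusted p = 0.0354), all negative, where 2.61% of all tested genes were called lower. For E2F2 siRNA against control siRNA no gene of the 10 was called by edgeR or limma-voom and DESeq2 called 1, where 0.889% of all tested genes were called by edgeR. Of the 10, 1 had an unadjusted p under 0.05, against 10.4% of all tested genes. This was CHAF1B (log2 -0.68 ± 0.18, adjusted p = 0.101), the gene called by DESeq2. The intervals for ASF1B (-0.61 to 0.56) and UHRF1 (-0.41 to 0.57) include 0, so a difference in their R1881 response between the E2F2 and control pools was not detectable here. These 2 interactions share the control libraries.

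**Figure D4:**
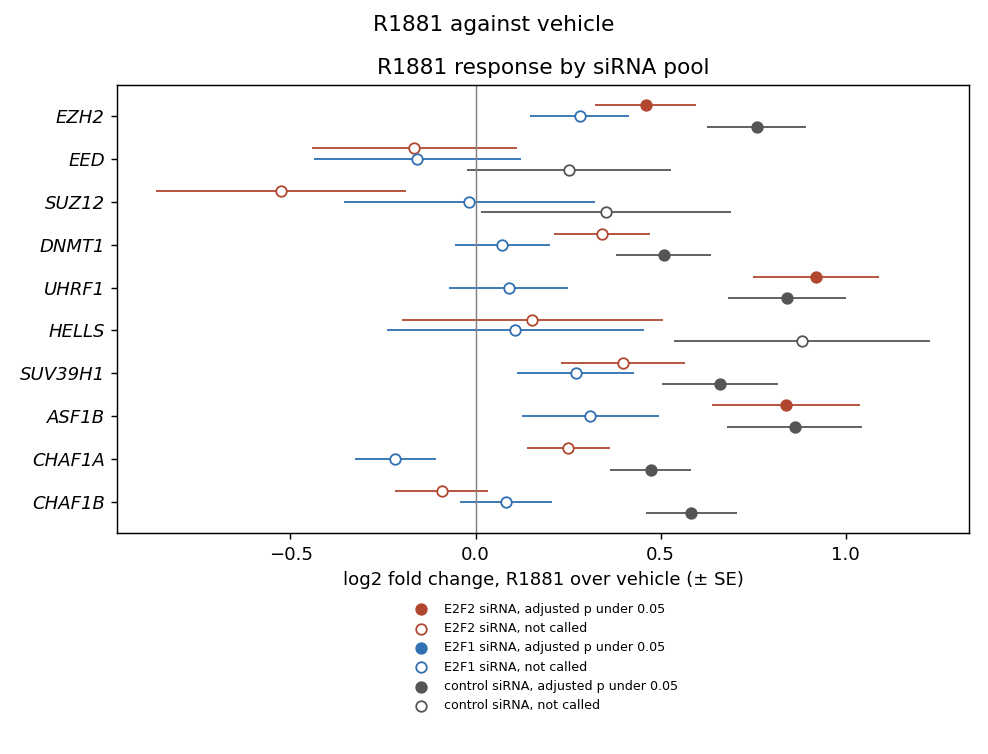
Log2 fold change ± SE of the 10 genes with R1881 over vehicle, in cells with E2F2 siRNA (red), E2F1 siRNA (blue) and control siRNA (grey); filled points have an adjusted p under 0.05. Filled are 3 genes with E2F2 siRNA, 0 with E2F1 siRNA and 7 with control siRNA.

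Among the PRC2 subunits, EZH2 fell with both pools under R1881, and EED and SUZ12 were called in none of the 11 comparisons in the fit of all libraries without the block. EZH2 (ENSG00000106462.10, chr7:148807383-148884321, minus strand, GRCh38) had 24.5, 22.3 and 25.6 CPM in replicates 1 to 3 of E2F2 siRNA with R1881, 28.2, 30.4 and 27.1 in E2F1 siRNA with R1881 and 47.4, 51.2 and 46.2 in control siRNA with R1881. With vehicle it had 17.5, 19.8 and 15.4 CPM with E2F2 siRNA, 23.9, 25.1 and 21.5 with E2F1 siRNA and 30.7, 32.7 and 22.2 with control siRNA. Under R1881 both E2F groups lay wholly below the control group, and with vehicle the E2F2 group did, while control replicate 3 lay within the range of the E2F1 group. EZH2 fell with E2F2 siRNA under R1881 (log2 -1.0 ± 0.13, adjusted p = 3.83e-05), and also without R1881 (log2 -0.70 ± 0.14, adjusted p = 0.00122), and with E2F1 siRNA under R1881 (log2 -0.76 ± 0.13, adjusted p = 0.00171). In a fit of the 2 vehicle groups alone the call with E2F2 siRNA was lost (adjusted p = 0.0509). With E2F1 siRNA and vehicle it was at log2 -0.28 ± 0.13 (adjusted p = 0.326). Its rise with R1881 in control cells reached adjusted p = 4.44e-04.

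EED (ENSG00000074266.18, chr11:86244544-86278813, plus strand), the reader of the mark, had the lowest level per kilobase of annotated exon of the 10 genes in control siRNA with R1881, a level that also depends on capture probes. It had 23.6, 23.3 and 17.4 CPM in E2F2 siRNA with R1881, 18.9, 18.5 and 13.6 in E2F1 siRNA with R1881 and 24.2, 24.0 and 16.6 in control siRNA with R1881. Replicate 3 was the lowest of each of these groups, and the E2F2 and control groups overlapped almost fully. In vehicle-treated cells it had 25.5, 26.2 and 20.3 CPM with E2F2 siRNA, 21.9, 22.8 and 12.2 with E2F1 siRNA and 21.7, 22.4 and 10.4 with control siRNA. The change with E2F2 siRNA under R1881 was log2 -0.02 ± 0.28, with a 95% interval of -0.60 to 0.57. With the block it was called higher in E2F2 siRNA with vehicle than in control siRNA with vehicle (log2 0.45, adjusted p = 0.00844) and than in E2F1 siRNA with vehicle (log2 0.37, adjusted p = 0.0232). For E2F2 siRNA against control siRNA with vehicle the block called 6873 of all 15185 tested genes in either direction.

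SUZ12 (ENSG00000178691.10, chr17:31937018-32001045, plus strand), the scaffold of the complex, was highest in E2F2 siRNA with vehicle. It had 125, 133 and 94.7 CPM there, 81.1, 85.9 and 45.6 in E2F1 siRNA with vehicle and 91.9, 89.5 and 27.4 in control siRNA with vehicle. Every library of E2F2 siRNA with vehicle was above every library of the other 2 vehicle groups, although its replicate 3 exceeded control replicate 1 by little. The difference from control was log2 0.76 ± 0.34, adjusted p = 0.112. With the block it was log2 0.85 (adjusted p = 0.00271) and from replicates 1 and 2 alone log2 0.50, adjusted p = 1.11e-07. In either direction the block called 6873 of all 15185 tested genes there, and replicates 1 and 2 alone 6962 of 15225. Against E2F1 siRNA with vehicle the block gave log2 0.76 (adjusted p = 0.00510). Under R1881 SUZ12 had 90.7, 82.7 and 71.4 CPM with E2F2 siRNA, 78.1, 74.5 and 57.6 with E2F1 siRNA and 99.1, 97.3 and 70.1 with control siRNA, with overlapping groups. In cells with E2F2 siRNA every R1881 library was below every vehicle library (log2 -0.53 ± 0.34, adjusted p = 0.311), and a fit of these 2 groups alone called SUZ12 lower with R1881 (log2 -0.52, adjusted p = 0.0157). Its change with E2F2 siRNA under R1881 against control siRNA was log2 -0.12 ± 0.34, with an interval of -0.84 to 0.59. A partial copy, SUZ12P1, had 96 to 214 counts per library, and reads shared between the copies could have been assigned to either.

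Counts of EZH2 relative to its partners in the same library were compared as well. These ratios were chosen after the values were seen and are given for description. The median EZH2 to EED ratio was 1.04 in E2F2 siRNA with R1881, 1.64 in E2F1 siRNA with R1881 and 2.13 in control siRNA with R1881. With vehicle it was 0.755 with E2F2 siRNA, 1.10 with E2F1 siRNA and 1.46 with control siRNA. E2F2 siRNA and control siRNA did not overlap with either treatment, and the mean log2 difference was -0.99 under R1881 and -1.16 with vehicle. The EZH2 to SUZ12 ratio differed likewise between those groups, by log2 -0.89 under R1881 and -1.62 with vehicle. In each of these 4 differences the exact permutation test gave p = 0.1 (two-sided), the smallest that 3 against 3 libraries allow. From replicates 1 and 2 alone the 4 differences were -1.03 and -0.998 for EED and -0.89 and -1.27 for SUZ12.

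EZH1, the paralog of EZH2 that can take its place in the complex, was lower with R1881 in control cells, where EZH2 was higher. The EZH2 to EZH1 ratio had a median of 0.840 in E2F2 siRNA with R1881, 1.07 in E2F1 siRNA with R1881 and 1.90 in control siRNA with R1881. With vehicle the medians were 0.497 with E2F2 siRNA, 0.749 with E2F1 siRNA and 0.941 with control siRNA. In control siRNA cells EZH1 fell with R1881 (log2 -0.41 ± 0.10, adjusted p = 0.00561). Per kilobase of exon, EZH2 stood at 3.89 ± 0.486 CPM and EZH1 at 5.09 ± 0.224 in E2F2 siRNA with vehicle, against 10.7 ± 0.577 for EZH2 and 3.57 ± 0.152 for EZH1 in control siRNA with R1881 (SD, n = 3). Which of the 2 genes stands higher also depends on annotated exon length and capture probes.

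**Figure D5:**
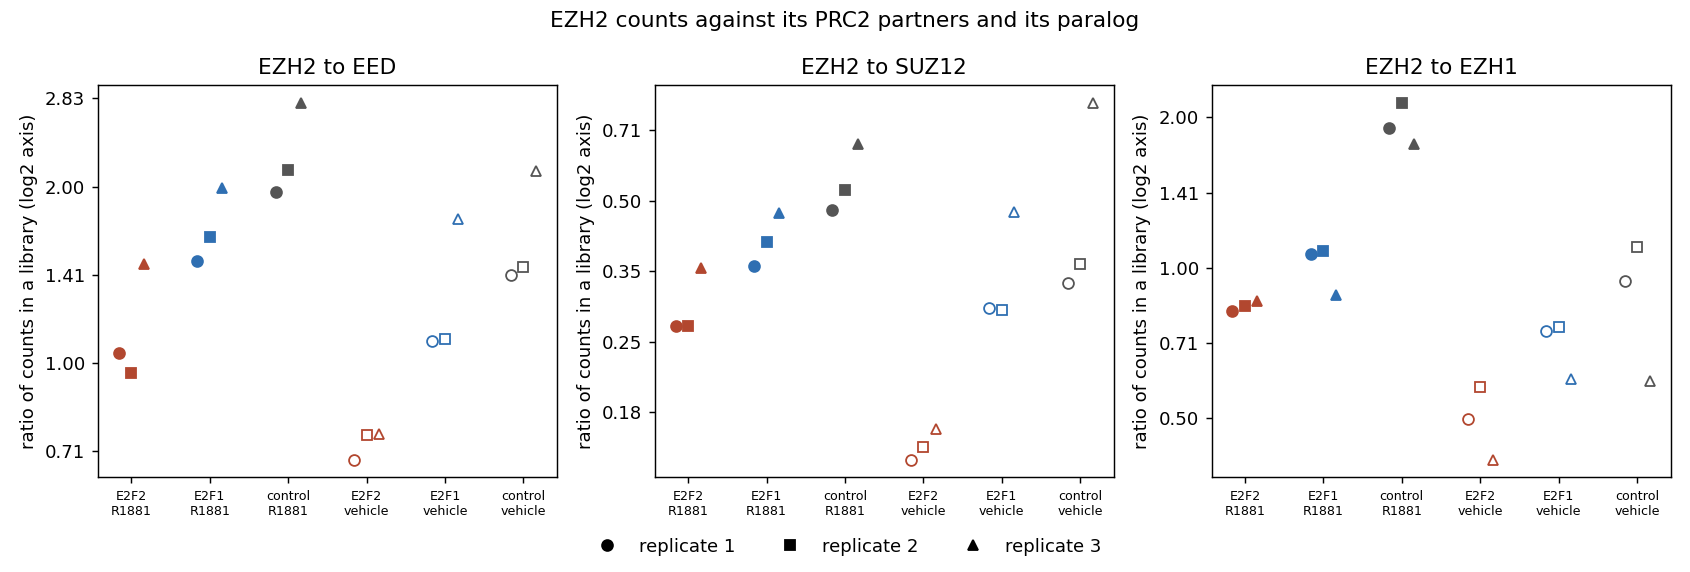
Ratio of EZH2 counts to EED, SUZ12 and EZH1 counts in each library (y axis, log2 scale) by group (x axis), with replicates 1, 2 and 3 as circles, squares and triangles, filled with R1881 and open with vehicle. The median EZH2 to EED ratio is lowest in E2F2 siRNA with vehicle (0.755) and highest in control siRNA with R1881 (2.13).

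Of 10 other PRC2 genes listed, 9 were tested, and EPOP had 0 counts in every library. E2F2 siRNA under R1881 gave 1 higher and 2 lower of the 9, where it gave 15.9% of all tested genes higher and 14.4% lower, with RBBP7, a histone-binding subunit, at -0.46 ± 0.12 and PHF19, an accessory subunit that binds methylated H3, at -0.99 ± 0.30. E2F1 siRNA under R1881 gave 0 higher and 1 lower, against 4.42% higher and 4.92% lower of all tested genes, and this was PHF19 (log2 -1.61 ± 0.32, adjusted p = 0.00380). The PHF19 call with E2F2 siRNA was lost in 4 of the 6 fits that left out 1 library (adjusted p up to 0.0771), those without replicate 1 or 3 of either group. R1881 in control cells gave 1 higher, RBBP7 (0.56 ± 0.12), and 2 lower, EZH1 and JARID2, against 13.8% higher and 13.2% lower of all tested genes. The list medians were log2 -0.17 with E2F2 siRNA, 0.00 with E2F1 siRNA and -0.16 with R1881, against 0.03, -0.01 and 0.00 over all tested genes.

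PRC1, the complex that binds the PRC2 mark and ubiquitinates H2A, was measured through 19 subunits, all tested. E2F2 siRNA under R1881 called 0 higher and 4 lower, where it called 15.9% of all tested genes higher and 14.4% lower. With vehicle it called 2 higher and 5 lower, where it called 14.2% of all tested genes higher and 13.1% lower. CBX2, a reader subunit, was at log2 -1.14 ± 0.18 under R1881 and -0.90 ± 0.18 with vehicle. KDM2B, which guides PRC1 to CpG islands, was at -0.64 ± 0.11 under R1881, and CBX8 at -0.42 ± 0.08. E2F1 siRNA under R1881 called 0 higher and 2 lower, against 4.42% and 4.92% of all tested genes, and PCGF3 was at -0.69 ± 0.07. R1881 in control cells called 1 higher and 4 lower, against 13.8% and 13.2% of all tested genes, with PHC1 at -1.23 ± 0.16 and KDM2B at 0.42 ± 0.11. The demethylases that remove the PRC2 mark, KDM6A and KDM6B, both fell with R1881 in control cells (-0.52 ± 0.09 and -0.70 ± 0.23), and KDM6B lost the call in 3 of the 6 fits that left out 1 library (without replicate 1 or 2 of control siRNA with R1881 or replicate 3 of control siRNA with vehicle, adjusted p up to 0.162).

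Genes reported elsewhere as silenced by EZH2 in prostate cancer were called in both directions. Of 8 listed, 5 were tested, since CNR1, SLIT2 and TIMP3 had at most 9 counts in any library. TIMP2, an inhibitor of matrix proteases, rose with E2F2 siRNA under R1881 (log2 0.81 ± 0.12, adjusted p = 6.79e-05) and was lower with E2F1 siRNA under R1881 (log2 -0.47 ± 0.12, adjusted p = 0.0171). The call with E2F1 siRNA was lost in 4 of the 6 fits that left out 1 library (without replicate 1 or 2 of E2F1 siRNA with R1881 or replicate 2 or 3 of control siRNA with R1881). TIMP2 fell with R1881 in control cells (-1.08 ± 0.12). CDH1, E-cadherin, rose with E2F1 siRNA under R1881 (0.36 ± 0.07) and fell with E2F2 siRNA and vehicle (-0.36 ± 0.07).

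All 3 maintenance methylation genes were lower with E2F2 siRNA under R1881, UHRF1 most. UHRF1 (ENSG00000276043.4, chr19:4903080-4962154, plus strand), the reader that recruits DNMT1, had 21.3, 16.8 and 25.6 CPM in E2F2 siRNA with R1881, 38.7, 40.0 and 40.8 in E2F1 siRNA with R1881 and 75.0, 65.8 and 73.1 in control siRNA with R1881. The 3 groups did not overlap and stood in this order. Without R1881 it had 10.6, 10.0 and 13.0 CPM with E2F2 siRNA, 34.5, 32.1 and 45.7 with E2F1 siRNA and 34.2, 39.5 and 45.6 with control siRNA. The E2F2 group lay below the other 2, which overlapped. The changes were log2 -1.75 ± 0.17, adjusted p = 1.16e-06 for E2F2 siRNA under R1881, log2 -1.82 ± 0.17, adjusted p = 1.17e-06 for E2F2 siRNA with vehicle and log2 -0.84 ± 0.16, adjusted p = 0.00308 for E2F1 siRNA under R1881.

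DNMT1 (ENSG00000130816.14, chr19:10133345-10231286, minus strand), the maintenance methyltransferase, showed the same order of groups. It had 103, 93.8 and 114 CPM in E2F2 siRNA with R1881, 163, 168 and 178 in E2F1 siRNA with R1881 and 234, 231 and 273 in control siRNA with R1881, with no overlap. With vehicle it had 79.4, 74.5 and 91.1 CPM with E2F2 siRNA, 153, 146 and 185 with E2F1 siRNA and 159, 153 and 207 with control siRNA. The E2F2 vehicle group lay below the others. DNMT1 fell with E2F2 siRNA under R1881 (log2 -1.25 ± 0.13, adjusted p = 2.98e-06), and also without R1881 (log2 -1.08 ± 0.13, adjusted p = 1.41e-05), and with E2F1 siRNA under R1881 (log2 -0.54 ± 0.13, adjusted p = 0.0141). Per kilobase of exon it had the highest mean of the 10 genes in control siRNA with R1881, at 25.1 ± 2.39 CPM, against 3.08 ± 0.615 for EED, the lowest. The length was that of all annotated exons, and the libraries were exome-captured. This ranking thus also depends on annotation and capture probes. The annotated DNMT1 gene overlaps S1PR2 on the same strand, which had 54 to 182 counts.

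HELLS (ENSG00000119969.14, chr10:94501434-94613905, plus strand), the remodeller, had a wider spread within groups. It had 35.8, 24.4 and 27.5 CPM in E2F2 siRNA with R1881, 42, 42.4 and 30.0 in E2F1 siRNA with R1881 and 77.3, 82.6 and 47.9 in control siRNA with R1881. Control replicate 3 was far below its group but above every library of both E2F groups. In vehicle-treated cells it had 28.9, 30.5 and 19.5 CPM with E2F2 siRNA, 36.5, 48.0 and 21.9 with E2F1 siRNA and 48.1, 47.2 and 17.7 with control siRNA, where control replicate 3 was the lowest of the 9 vehicle libraries. HELLS fell with E2F2 siRNA under R1881 (log2 -1.25 ± 0.35, adjusted p = 0.0132). With E2F2 siRNA and vehicle it was at log2 -0.52 ± 0.35 (adjusted p = 0.298), and without replicate 3 of control siRNA with vehicle it was called lower (log2 -0.86, adjusted p = 0.0385).

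Other genes of DNA methylation were counted over 16 listed, all tested. E2F2 siRNA under R1881 called 2 higher and 5 lower, against 15.9% and 14.4% of all tested genes, and with vehicle 2 higher and 4 lower, against 14.2% and 13.1%. E2F1 siRNA under R1881 called 0 higher and 1 lower, against 4.42% and 4.92%. CDCA7, which partners HELLS, was lower with E2F2 siRNA, at log2 -1.61 ± 0.16 under R1881 and -1.29 ± 0.17 with vehicle. Its relative CDCA7L was at -1.10 ± 0.11 with E2F2 siRNA and -0.76 ± 0.11 with E2F1 siRNA, both under R1881. The de novo methyltransferase DNMT3B fell with E2F2 siRNA under R1881 (-0.79 ± 0.16), and TET2, which oxidises methylcytosine, rose (0.38 ± 0.09). R1881 in control cells called 6 higher and 3 lower, against 13.8% and 13.2% of all tested genes, with CDCA7 at 0.90 ± 0.15, ZBTB24, which activates CDCA7, at 1.03 ± 0.13, TET2 at -0.72 ± 0.09 and DNMT3A at -0.51 ± 0.10. The list medians were log2 -0.11 with E2F2 siRNA under R1881, -0.13 with vehicle, -0.05 with E2F1 siRNA under R1881 and 0.28 with R1881.

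Of 14 listed genes that DNA methylation keeps silent in many tissues, 4 (MAGEA1, MAGEA3, MAGEA4 and TDRD1) had enough counts to test. None of the 4 was called with either pool against control siRNA in the fit of all libraries. MAGEA3 was not silent in these cells, with 840 to 1550 counts per library. MAGEA1, MAGEA4 and TDRD1 were low, with 13 to 61, 2 to 18 and 6 to 29 counts, and at most 4.07, 1.38 and 2.07 CPM. The other 10 had at most 5 counts in any library, so these tests cannot show whether silent genes stayed silent. GSTP1, whose promoter is known to be methylated in LNCaP cells, had at most 1. For E2F2 siRNA under R1881, edgeR, DESeq2 and limma-voom called 0 of the 4 and 0 had an unadjusted p under 0.05, and the same held for E2F1 siRNA under R1881. From replicates 1 and 2 alone MAGEA3 and TDRD1, 2 of the 4, were called lower with E2F2 siRNA under R1881. Of all tested genes, 51.4% were called there in either direction. MAGEA3, 1 of the 4, was called lower with E2F1 siRNA under R1881 from the same replicates. There 29.5% of all tested genes were called in either direction, and 15.0% were called lower. With vehicle edgeR, DESeq2 and limma-voom again called 0 with either pool, and an unadjusted p under 0.05 was found for 0 with E2F2 siRNA and 1 with E2F1 siRNA. The smallest p with E2F2 siRNA under R1881 was that of TDRD1, at log2 -0.63 ± 0.35 (adjusted p = 0.192). DNA methylation itself was not measured.

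SUV39H1 (ENSG00000101945.16, chrX:48695554-48709012, plus strand), which trimethylates H3 lysine 9 in heterochromatin, had 71 to 337 counts per library. It had 8.28, 10.1 and 11.4 CPM in E2F2 siRNA with R1881, 16.1, 16.4 and 15.6 in E2F1 siRNA with R1881 and 22.5, 19.8 and 22.1 in control siRNA with R1881, without overlap. Without R1881 it had 8.23, 6.70 and 7.67 CPM with E2F2 siRNA, 12.2, 12.5 and 15.2 with E2F1 siRNA and 12.4, 11.1 and 17.1 with control siRNA. Here the E2F1 and control groups overlapped and the E2F2 group lay below both. SUV39H1 fell with E2F2 siRNA under R1881 (log2 -1.11 ± 0.16, adjusted p = 7.38e-05), and also without R1881 (log2 -0.85 ± 0.16, adjusted p = 0.00122). Of 13 other genes of H3 lysine 9 methylation and heterochromatin, all tested, E2F2 siRNA called 0 higher and 6 lower with either treatment, among them SETDB1, CBX1, EHMT2 and TRIM28, where 14.4% of all tested genes were called lower under R1881 and 13.1% with vehicle. SETDB1, another lysine 9 methyltransferase, was at -0.46 ± 0.10 under R1881 and -0.50 ± 0.10 with vehicle. E2F1 siRNA under R1881 called 0 higher and 1 lower of the 13, against 4.42% higher and 4.92% lower of all tested genes. The gene was KMT5A, the H4 lysine 20 monomethyltransferase (log2 -0.44 ± 0.11, adjusted p = 0.0189). This call was lost in 5 of the 6 fits that left out 1 library, all but that without replicate 3 of E2F1 siRNA with R1881. R1881 in control cells called 1 higher and 0 lower of the 13, KMT5A again (0.67 ± 0.11), against 13.8% higher and 13.2% lower of all tested genes. The list medians were log2 -0.38 with E2F2 siRNA under R1881, -0.34 with E2F2 siRNA and vehicle, -0.29 with E2F1 siRNA under R1881 and 0.08 with R1881.

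The 3 chaperone genes fell with both pools under R1881. ASF1B (ENSG00000105011.8, chr19:14119509-14136956, minus strand), which hands H3 and H4 to chromatin assembly factor 1, had 13.9, 12.3 and 16.7 CPM in E2F2 siRNA with R1881, 28.6, 28.8 and 31.7 in E2F1 siRNA with R1881 and 53.2, 49.1 and 54.2 in control siRNA with R1881. The groups were far apart, with the E2F1 group between the other 2. With vehicle it had 10.1, 5.19 and 8.70 CPM with E2F2 siRNA, 22.7, 20.9 and 28.3 with E2F1 siRNA and 25.2, 27.4 and 33.4 with control siRNA. The E2F2 group was again well below the others, which overlapped. The changes were log2 -1.86 ± 0.19, adjusted p = 2.32e-06 for E2F2 siRNA under R1881, log2 -1.84 ± 0.20, adjusted p = 4.55e-06 for E2F2 siRNA with vehicle and log2 -0.81 ± 0.18, adjusted p = 0.00949 for E2F1 siRNA under R1881. In E2F2 siRNA with vehicle the values rest on as few as 55 counts in a library.

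CHAF1A (ENSG00000167670.15, chr19:4402662-4445018, plus strand), the large subunit of chromatin assembly factor 1, had 35.4, 34.9 and 41.6 CPM in E2F2 siRNA with R1881, 55.9, 55.3 and 58.1 in E2F1 siRNA with R1881 and 90.0, 93.7 and 100.2 in control siRNA with R1881. These groups did not overlap. In vehicle-treated cells it had 28.8, 29.2 and 36.1 CPM with E2F2 siRNA, 63.4, 62.6 and 70.7 with E2F1 siRNA and 63.2, 63.7 and 77.5 with control siRNA. The E2F1 and control groups overlapped there, and the E2F2 group lay below both. The changes were log2 -1.34 ± 0.11, adjusted p = 3.45e-07 for E2F2 siRNA under R1881, log2 -1.12 ± 0.11, adjusted p = 2.27e-06 for E2F2 siRNA with vehicle and log2 -0.75 ± 0.11, adjusted p = 4.17e-04 for E2F1 siRNA under R1881. CHAF1A overlaps UBXN6 on the opposite strand, which had 1120 to 2574 counts. The strand setting of the counting is not given in the sources used here, so reads in the shared stretch cannot be told apart.

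CHAF1B (ENSG00000159259.7, chr21:36385378-36419015, plus strand), the middle subunit, had 26.2, 30.7 and 28.1 CPM in E2F2 siRNA with vehicle, 29.7, 30.1 and 32.9 in E2F1 siRNA with vehicle and 32.4, 34.7 and 41.4 in control siRNA with vehicle. The E2F2 group was below every control library and overlapped the E2F1 group. Its fall with E2F2 siRNA and vehicle was small (log2 -0.35 ± 0.12, adjusted p = 0.0462), and it was lost under RLE scaling (adjusted p = 0.0507), with no filter on low counts (adjusted p = 0.0656), in a fit of the 2 groups alone (adjusted p = 0.144) and in 5 of the 6 fits that left out 1 library, all but that without replicate 1 of control siRNA with vehicle (adjusted p up to 0.161). Under R1881 CHAF1B had 27.6, 24.1 and 28.0 CPM with E2F2 siRNA, 27.8, 31.8 and 38.6 with E2F1 siRNA and 52.2, 53.1 and 57.3 with control siRNA. Both E2F groups lay below control and overlapped each other. The changes were log2 -1.03 ± 0.12, adjusted p = 1.39e-05 for E2F2 siRNA and log2 -0.73 ± 0.12, adjusted p = 0.00131 for E2F1 siRNA. CHAF1B overlaps MORC3 on the same strand, which had 306 to 918 counts.

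The counts of the 2 subunits were also compared within libraries. The median CHAF1A to CHAF1B count ratio was 1.45 in E2F2 siRNA with R1881, 1.74 in E2F1 siRNA with R1881 and 1.75 in control siRNA with R1881. With vehicle it was 1.10 with E2F2 siRNA, 2.13 with E2F1 siRNA and 1.87 with control siRNA. The mean log2 difference of E2F2 siRNA from control siRNA was -0.32 under R1881 and -0.77 with vehicle, with no overlap in either (exact permutation p = 0.1, two-sided, the smallest 3 against 3 allow). This ratio too was chosen after the values were seen, and 36 ratio differences were computed in all.

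Other histone chaperones were counted over 20 listed, all tested. E2F2 siRNA called 0 higher and 10 lower under R1881, where 14.4% of all tested genes were lower, and 0 higher and 7 lower with vehicle, where 13.1% were. E2F1 siRNA under R1881 called 0 higher and 7 lower, where 4.92% were lower. NASP, a carrier of soluble H3 and H4, fell with E2F2 siRNA under R1881 (-1.15 ± 0.09) and with vehicle (-0.75 ± 0.09), and with E2F1 siRNA under R1881 (-0.47 ± 0.09). HJURP, which loads the centromeric H3 variant, fell in the same 3 comparisons (-1.55 ± 0.13, -1.75 ± 0.14 and -0.84 ± 0.13). The FACT subunit SSRP1 fell with E2F2 siRNA under R1881 (-0.91 ± 0.10), and its partner SUPT16H with E2F1 siRNA under R1881 (-0.58 ± 0.07). R1881 in control cells called 5 higher and 0 lower, where 13.8% of all tested genes were higher, led by HJURP (1.03 ± 0.13) and NASP (0.48 ± 0.09). The list medians were log2 -0.44 with E2F2 siRNA under R1881, -0.33 with vehicle, -0.39 with E2F1 siRNA under R1881 and 0.30 with R1881.

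The genes whose 6 group means lay nearest to those of each member, by the root mean square difference of centred log2 CPM, are given as a description. For UHRF1 they were MYBL2 (0.05) and CDC45 (0.05), and for ASF1B PTTG1 (0.05) and KIF2C (0.05). DNMT1 lay nearest to NUDT1 (0.03) and RCC1 (0.05), CHAF1A to LIG1 (0.07) and NUDT1 (0.07), HELLS to DONSON (0.07) and C1orf112 (0.08), and SUV39H1 to TUBA1B (0.04) and MYO19 (0.04). EZH2 lay nearest to LRRC45 (0.02) and TMEM201 (0.07), EED to TYRO3 (0.04) and LRRC40 (0.05), SUZ12 to CHD1 (0.07) and RP11-481C4.2 (0.07), and CHAF1B to ACD (0.08) and FAM101B (0.09). Among the 10 themselves the closest were UHRF1 and ASF1B, at 0.07. EED and SUZ12 were each other's nearest, at 0.15, and EZH2 lay nearer to HELLS (0.11) than to either of them. All these distances share the same 18 libraries.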

How the data were processed

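Total RNA from LNCaP cells (Trizol and RNeasy) was made into exome-captured libraries, per the labels' protocols, so levels depend on capture probes as well as abundance. The deposited table holds whole-number counts of reads per gene, not normalized by the authors. Per the submitters' processing notes, which give no order of steps, the tools were CASAVA 1.8.2, the aligner TopHat2 2.0.13, Picard 1.97 and the counter featureCounts of Subread 1.6.4, with the build GRCh38. The annotation release and the strand setting are not given in the sources used here.

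The main analysis used edgeR 4.0.16 in R 4.3.3: genes passing filterByExpr with a minimum count of 10 (15185 genes, at least 99.8% of each library's counts), TMM scaling, a quasi-likelihood fit of all 18 libraries by group, 11 comparisons, and Benjamini-Hochberg adjustment. It was tested on simulated data for E2F2 siRNA against control siRNA under R1881. These were drawn without the replicate 3 shift or a link between same-numbered libraries, so that test does not cover either. Alternatives were RLE scaling, DESeq2 1.42.0, limma-voom (limma 3.58.1), no filter, a filter of CPM 1 or more in 3 libraries, the groups compared only, replicate number as a block, replicates 1 and 2 only, and leaving out each library. The labels give replicate numbers 1 to 3 in every group, and deviations of same-numbered libraries correlated above 0.1 in every pair in 8 of the 11 comparisons. Replicates are labelled biological. Total counts per library limit the precision, since a gene's counting error grows as its count falls. G+C content was that of the longest GENCODE 29 transcript. Gene coordinates are GENCODE 29 on GRCh38, matched by gene ID.

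The 10 genes and all gene lists were chosen with earlier results of these data known. Named besides them are E2F1, E2F2, the proliferation markers, up to 4 called genes per list and comparison with the smallest p (up to 2 where none was called), and the 2 nearest genes by group means.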

Additional observations from a re-analysis of the deposited data

How the results depend on the processing

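Of 1660 alternative values of the 10 genes, 45 changed sign, and none of these was called in the main or the alternative fit. Over all tested genes the main counts of calls were 3009 for R1881 with E2F1 siRNA, 3465 for R1881 with E2F2 siRNA, 4105 for R1881 with control siRNA, 1418 for E2F1 siRNA under R1881, 4601 for E2F2 siRNA under R1881, 802 for E2F1 siRNA with vehicle, 4145 for E2F2 siRNA with vehicle, 3648 for E2F2 against E2F1 siRNA under R1881, 4641 for E2F2 against E2F1 siRNA with vehicle, 104 for the E2F1 interaction and 135 for the E2F2 interaction. With replicate number as a block the counts that moved by over 1.5 times were 4661 for R1881 with E2F1 siRNA, 5501 for R1881 with E2F2 siRNA, 6392 for R1881 with control siRNA, 3022 for E2F1 siRNA under R1881, 6919 for E2F2 siRNA under R1881, 1934 for E2F1 siRNA with vehicle, 6873 for E2F2 siRNA with vehicle, 5848 for E2F2 against E2F1 siRNA under R1881, 696 for the E2F1 interaction and 658 for the E2F2 interaction, and of the 10 genes 1 for R1881 with E2F1 siRNA, 6 for R1881 with E2F2 siRNA, 4 for the E2F1 interaction and 1 for the E2F2 interaction. Besides the calls given with the results, the block added EED (adjusted p = 0.0464) and CHAF1B (adjusted p = 0.0237) for E2F2 against E2F1 siRNA under R1881. It also added CHAF1B (adjusted p = 0.00880) for the E2F2 interaction. In these comparisons not every same-numbered pair correlated above 0.1. The block changed no other call among the 10. Among the 4 germline genes tested, the block called 1, MAGEA3, lower for E2F2 siRNA under R1881. From replicates 1 and 2 only the counts were 5829 for R1881 with E2F1 siRNA, 6927 for R1881 with E2F2 siRNA, 7205 for R1881 with control siRNA, 4487 for E2F1 siRNA under R1881, 7828 for E2F2 siRNA under R1881, 2864 for E2F1 siRNA with vehicle, 6962 for E2F2 siRNA with vehicle, 6810 for E2F2 against E2F1 siRNA under R1881, 7670 for E2F2 against E2F1 siRNA with vehicle, 1844 for the E2F1 interaction and 1767 for the E2F2 interaction, and of the 10 genes 6 for R1881 with E2F1 siRNA, 6 for R1881 with E2F2 siRNA, 10 for E2F1 siRNA under R1881, 1 for E2F1 siRNA with vehicle, 9 for E2F2 against E2F1 siRNA under R1881, 6 for the E2F1 interaction and 3 for the E2F2 interaction. In fits of only the groups compared they were 1842 for R1881 with control siRNA, 2131 for E2F1 siRNA under R1881, 17 for E2F1 siRNA with vehicle, 1793 for E2F2 siRNA with vehicle, 21 for the E2F1 interaction and 40 for the E2F2 interaction, and of the 10 genes 5 for R1881 with E2F2 siRNA and 4 for R1881 with control siRNA, where the 5 were 4 higher and SUZ12 lower. With no filter on low counts they were 903 for E2F1 siRNA under R1881, 462 for E2F1 siRNA with vehicle, 22 for the E2F1 interaction and 60 for the E2F2 interaction. With DESeq2 they were 350 for the E2F1 interaction and 317 for the E2F2 interaction, and of the 10 genes 2 for the E2F1 interaction and 1 for the E2F2 interaction. RLE scaling called 1 for the E2F1 interaction, and limma-voom 1 for the E2F1 interaction, of the 10 genes. The cause of these shifts was not tested. Leaving out 1 library at a time gave 872 to 1075 for E2F1 siRNA under R1881, 445 to 1028 for E2F1 siRNA with vehicle, 29 to 250 for the E2F1 interaction and 53 to 208 for the E2F2 interaction, with both highest interaction counts in the fit without replicate 3 of control siRNA with vehicle, and of the 10 genes 2 to 4 for R1881 with E2F2 siRNA, 7 to 8 for R1881 with control siRNA, 5 to 6 for E2F1 siRNA under R1881, 7 to 8 for E2F2 siRNA under R1881, 0 to 1 for E2F1 siRNA with vehicle, 6 to 7 for E2F2 siRNA with vehicle, 5 to 6 for E2F2 against E2F1 siRNA under R1881, 5 to 6 for E2F2 against E2F1 siRNA with vehicle, 0 to 1 for the E2F1 interaction and 0 to 1 for the E2F2 interaction. Where the fit without replicate 3 of control siRNA with vehicle called 1 of the 10 (EZH2 for E2F1 siRNA with vehicle, CHAF1A and CHAF1B for the interactions), the fit with it called 0. Of the 110 tests of the 10 genes, the block kept 92 on the same side of the threshold, replicates 1 and 2 only 76, and leaving out 1 library kept 755 of 780. Of 198 counts of list genes, the block moved 66, replicates 1 and 2 only 102 and the groups compared only 59 by over 1.5 times. Depth limits the low genes, E2F2 in every group and SUV39H1 and ASF1B with E2F2 siRNA.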
